A study of Mus musculus with 2 samples.

Results

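The genes described here are 5 homeodomain transcription factors of the eye field, Six3, Six6, Rax, Pax6 and Lhx2. They were identified by symbol, in a list drawn up with earlier results of these data known, and all 5 were found among the 30905 genes listed for both libraries. Single-cell RNA sequencing (3′ end counts of unique molecular identifiers, UMIs) was performed on whole mouse retinas at postnatal day 7. The control library pooled 2 retinas labelled Ctrl, littermates whose Cre status is not given in the sources used here. The Mettl3-CKO library pooled 2 retinas of Six3-Cre+; Mettl3 floxed/floxed pups, in which Cre is expressed in retinal progenitor cells (RPCs) from the embryo on and acts efficiently in the central retina. Mettl3 encodes the catalytic subunit of the writer of N6-methyladenosine, a mark on mRNA. Each genotype was 1 library of pooled pups, so every difference below is between these libraries, no test between genotypes was possible, and all intervals are 95% intervals that cover counting error only. The Cre driver uses regulatory sequence of Six3, itself 1 of the 5 genes. Whether the transgene adds to the UMIs assigned to Six3 was not tested.

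The eye field is the patch of anterior neural plate from which both optic vesicles arise, and these factors act there as a mutually reinforcing network. SIX3 and SIX6 are closely related homeodomain proteins of the sine oculis family that repress target genes together with Groucho/TLE corepressors. RAX is a paired-like homeodomain protein needed for optic vesicle formation and kept later in photoreceptor precursors and Müller glia. PAX6 carries a paired domain and a homeodomain, holds progenitors multipotent and is retained in amacrine cells. LHX2 is a LIM homeodomain protein that works with LDB cofactors and is retained in Müller glia. Müller glia are the last cells made by RPCs and keep part of the progenitor programme, so the same genes serve in progenitors, in glia and in certain neurons.

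Six3 and Six6 are shown by their promoters, because their levels had the highest correlation of all pairs of these genes (below). That correlation included microglia-like cells, which do not derive from the neural retina, and was not computed without them. Each line gives 250 bases before and 50 after the transcript start in RefSeq (build GRCm38.p6, plus strand), at chr17:85620584-85620883 for Six3 and chr12:72939632-72939931 for Six6. Capitals mark the motif ATTGG or, on the other strand, CCAAT.
Six3: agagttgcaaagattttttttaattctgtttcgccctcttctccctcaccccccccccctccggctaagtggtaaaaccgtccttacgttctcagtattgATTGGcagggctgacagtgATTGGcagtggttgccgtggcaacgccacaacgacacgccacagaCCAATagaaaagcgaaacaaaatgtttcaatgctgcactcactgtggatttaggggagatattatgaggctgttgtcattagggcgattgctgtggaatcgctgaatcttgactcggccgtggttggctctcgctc
Six6: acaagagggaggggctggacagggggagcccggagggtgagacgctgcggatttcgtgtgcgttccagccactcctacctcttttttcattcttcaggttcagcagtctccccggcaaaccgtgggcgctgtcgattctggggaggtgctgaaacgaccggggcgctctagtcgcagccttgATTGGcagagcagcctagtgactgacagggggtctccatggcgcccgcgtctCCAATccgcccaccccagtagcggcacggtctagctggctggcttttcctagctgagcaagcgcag
The Six3 window held 3 such matches and the Six6 window 2. Of 32851 promoters of this length, 3.37% held at least 3 matches and 11.7% at least 2. The longest run shared by both windows on the same strand was the 11 bases TTGATTGGCAG. It started at base 98 of the Six3 window and base 180 of the Six6 window, and 12 of the 32851 promoters (0.0365%) held it. The run was picked from these windows, so that share does not tell how often 2 promoters share a run of this length. Of 2 windows each listed for Pax6 and Lhx2, 1 Pax6 window held 1 match and neither Lhx2 window held any. These are descriptions of letters, with no measurement of binding.

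In the GENCODE annotation of GRCm38, Six3 (ENSMUSG00000038805) spans positions 85613608 to 85629302 of chromosome 17, so the promoter window lies inside the annotated gene. Six6 (ENSMUSG00000021099) spans 72939892 to 72944899 of chromosome 12. Pax6 (ENSMUSG00000027168) and Lhx2 (ENSMUSG00000000247) lie on chromosome 2, at 105668900 to 105697364 and 38339281 to 38369733. All 4 are protein-coding, on the plus strand, and overlap annotated genes on the minus strand. Whether counting used the strand is not given in the sources used here, so how reads in the overlapping stretches were assigned is uncertain. Some of these were counted as genes of their own. They were Gm28528 over Six3, 4930447C04Rik over Six6, Pax6os1 over Pax6, and Gm27197 and Gm13584 over Lhx2.

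The 3994 control cells held 20955138 UMIs, with a median of 4520.5 per cell, and the 3109 Mettl3-CKO cells held 19957693, with a median of 5207. These were the complete cells of 5995 and 6992 barcodes, and 5 barcodes occurred in both sets. Levels are UMIs of a gene per 1000000 UMIs (CPM) over the summed cells of a class. Clusters drawn without the 5 genes gave 8 marker-defined classes, and 6 clusters with 34.3% of control and 35.1% of Mettl3-CKO cells stayed unnamed. Mettl3 UMIs, read at the 3′ end, were at 39.5 CPM in the control and 33.1 CPM in the Mettl3-CKO library (ratio 0.837, 0.754 to 0.928), and they check the labels only weakly. Xist stood at 1.5 CPM and 1544 CPM, so the libraries also differed in sex-linked expression. Among RPC-like cells of at least 4000 UMIs, the log2 ratio of Mettl3-CKO to control was 0.16 for Six3 and 0.039 for Rax with the 73 Mettl3-CKO cells that lacked an Xist UMI, and 0.41 and 0.20 with the 119 that had one, each against 123 control cells. Microglia-like cells (34 and 30 cells), which do not derive from the neural retina, gave the background of free RNA. There the 5 genes stood between 0 and 42.2 CPM in the control and between 4.02 and 28.1 CPM in the Mettl3-CKO library, on 0 to 9 UMIs.

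Six3 was highest in amacrine-like cells and higher in RPC-like, Müller-like and neurogenic precursor-like cells of the Mettl3-CKO library than in those of the control. Its level in amacrine-like cells was 1540 CPM (1438 to 1648) in the control and 1425 CPM (1337 to 1518) in the Mettl3-CKO library. Müller-like and RPC-like control cells held 925 CPM (895 to 957) and 923 CPM (876 to 972), which did not differ beyond counting error (ratio 1.003, 0.943 to 1.07). Neurogenic precursor-like cells (567 CPM), bipolar-like (459 CPM), cone-like (374 CPM) and rod-like cells (212 CPM) followed in that order, each apart from its neighbour.

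In the Mettl3-CKO library, Six3 stood at 1170 CPM (1129 to 1212) in RPC-like cells and at 1161 CPM (1124 to 1199) in Müller-like cells. In RPC-like cells the ratio of Mettl3-CKO to control was 1.27 (1.19 to 1.35), on 3030 and 1454 UMIs, and in Müller-like cells it was 1.254 (1.197 to 1.31), on 3703 and 3462 UMIs. Both lay just past the fold used here to call a difference, a log2 ratio of 0.32 in either direction. Without the clusters of shallow cells (cluster 14 of the RPC-like, clusters 12 and 13 of the Müller-like class) both ratios were 1.23, with intervals of 1.15 to 1.31 and 1.17 to 1.29. Six3 was above control under all 14 alternatives in both classes and past the fold under 7 and 9 of them. In RPC-like cells the log2 ratio was 0.55 among the cells listed first in the files and 0.18 among those listed last, so cells varied beyond counting error.

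Markers of other classes moved beside Six3. In Müller-like cells the 12 Müller markers summed to 7333 CPM in the Mettl3-CKO and 11277 CPM in the control library and the 12 RPC markers to 2914 and 2169 CPM, with none of either list at 0. In RPC-like cells the Müller markers summed to 3930 and 4884 CPM and the 10 rod markers to 438 and 221 CPM. Their part in the Six3 ratios was not tested.

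In neurogenic precursor-like cells the Six3 ratio was 1.197 (1.08 to 1.33). It was 1.01 (0.901 to 1.12) in bipolar-like, 0.957 (0.871 to 1.05) in rod-like and 0.925 (0.843 to 1.02) in amacrine-like cells, and 0.847 (0.733 to 0.980) in cone-like cells. The class with the highest Six3 level was thus not higher in the Mettl3-CKO library. The log2 ratio in amacrine-like cells was below that in Müller-like cells by an interval that excluded 0 (difference -0.44, -0.59 to -0.29). The same held for rod-like (-0.39, -0.54 to -0.24), cone-like (-0.57, -0.78 to -0.35) and bipolar-like cells (-0.32, -0.49 to -0.15).

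Six6, the close relative of Six3 that supports progenitor proliferation, was highest in cone-like and amacrine-like cells. In the control these held 483 CPM (437 to 532) and 480 CPM (424 to 542), with no difference beyond counting error. Müller-like cells held 309 CPM (292 to 328) and RPC-like cells 249 CPM (225 to 275). Neurogenic precursor-like, bipolar-like and rod-like cells followed at 183, 166 and 153 CPM. Of these, neurogenic precursor-like and bipolar-like cells did not differ beyond counting error (ratio 1.11, 0.924 to 1.33), nor did bipolar-like and rod-like cells (1.08, 0.944 to 1.24), whereas RPC-like cells stood above neurogenic precursor-like cells (1.36, 1.15 to 1.61).

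Between the libraries, Six6 was higher in RPC-like cells of the Mettl3-CKO library, at 293 CPM (272 to 314), a ratio of 1.17 (1.04 to 1.33), and did not differ beyond counting error in Müller-like cells, at 311 CPM (ratio 1.004, 0.922 to 1.09). It was lower in the photoreceptors. Cone-like cells went to 387 CPM (356 to 420), a ratio of 0.801 (0.704 to 0.911), and rod-like cells to 127 CPM (116 to 139), a ratio of 0.829 (0.738 to 0.930). In the 3 clusters of the rod-like class the ratio was 0.794, 0.776 and 0.860, the last on 41 and 14 UMIs in shallow cells. Neither photoreceptor ratio was past the fold, the cone-like one by a small margin, and both stayed below 1 under all 14 alternatives. Cone-like cells were deeper in the Mettl3-CKO library (median 12677 UMIs against 8307), and the sum of the cone markers there was 18462 CPM against 27650 CPM in the control. Whether these took part in the lower Six6 was not tested.

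Rax (ENSMUSG00000024518, chromosome 18, 65928277 to 65939787, minus strand) was spread over glia, precursors and photoreceptors. Among the named classes of the control it was highest in Müller-like cells at 680 CPM (654 to 707), followed by neurogenic precursor-like cells at 635 CPM (590 to 682), cone-like cells at 587 CPM (537 to 641) and RPC-like cells at 531 CPM (495 to 568), and these neighbours did not differ beyond counting error. Rod-like cells held 468 CPM (449 to 487), and amacrine-like and bipolar-like cells 185 CPM and 81.7 CPM, the last not above the microglia-like background of 42.2 CPM beyond counting error (ratio 1.93, 0.991 to 4.32). Its highest levels lay outside the named classes. Unnamed clusters 3 and 1, whose nearest marker list was that of rod and bipolar precursors, held 934 CPM (890 to 979) and 813 CPM (771 to 857).

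Rax was moderately higher in Müller-like and neurogenic precursor-like cells of the Mettl3-CKO library. The Rax ratio for RPC-like cells was 1.13 (1.04 to 1.23), that for Müller-like cells 1.12 (1.06 to 1.19), and it was 1.15 (1.04 to 1.27) in neurogenic precursor-like cells. Without the shallow cluster 14, the Rax ratio in RPC-like cells was 1.086 (0.995 to 1.19), an interval that included 1. It was 1.03 (0.920 to 1.15) in cone-like and 1.06 (0.996 to 1.13) in rod-like cells, and 0.946 and 0.995 in unnamed clusters 3 and 1. In the neurons with low Rax the ratio was larger, 1.54 (1.22 to 1.95) in bipolar-like cells, at 126 CPM in the Mettl3-CKO library, and 1.53 (1.197 to 1.97) in amacrine-like cells, at 282 CPM. In amacrine-like cells the summed rod markers were at 3665 CPM in the Mettl3-CKO and 1997 CPM in the control library, and their part in the Rax ratio was not tested. That ratio turned below 1 in 2 of 14 alternatives, with log2 values of -0.11 in the cells listed last and -1.31 in deep cells without an Xist UMI.

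Pax6 separated the classes widely. Control amacrine-like cells held 1240 CPM (1149 to 1337), Müller-like cells 546 CPM (522 to 570), RPC-like cells 502 CPM (468 to 538), neurogenic precursor-like cells 313 CPM (281 to 347) and bipolar-like cells 93.6 CPM (79.9 to 109). Rod-like cells (8.27 CPM, 5.94 to 11.2) and cone-like cells (13.05 CPM, 6.51 to 23.3) lay within the microglia-like background of 18.8 CPM (5.12 to 48.1), so no Pax6 of their own was detectable at this depth.

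By CPM, Pax6 was nearly equal between the libraries in progenitors and glia. The Pax6 ratio for RPC-like cells was 1.01 (0.925 to 1.11), that for Müller-like cells 0.993 (0.931 to 1.06), and it was 1.095 (0.949 to 1.26) in neurogenic precursor-like cells. Amacrine-like cells were slightly lower in the Mettl3-CKO library, at 1112 CPM (ratio 0.896, 0.807 to 0.996). Bipolar-like cells were higher, at 142 CPM (ratio 1.52, 1.22 to 1.90), a ratio that fell below 1 at clustering resolution 2 (log2 -0.29) and when each cell was named by its own markers (-0.053). Pax6 also stood higher in unnamed cluster 5, led by Gem, Fabp7 and Neurod4, at 77.3 CPM (64.9 to 91.3) against 124 CPM (108 to 142), a ratio of 1.61 (1.29 to 2.01). In bipolar-like cells the summed bipolar markers were lower in the Mettl3-CKO library (1401 against 2297 CPM) and the summed markers of rod and bipolar precursors higher (6917 against 5821 CPM). The 5 horizontal cell markers summed to 614 CPM in the Mettl3-CKO and 311 CPM in the control library, with 2 and 1 of them at 0, respectively. The part of these in the Pax6, Rax and Lhx2 ratios was not tested.

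Lhx2 was found mainly in progenitors and glia. In the control it stood at 540 CPM (504 to 578) in RPC-like, 479 CPM (457 to 501) in Müller-like and 149 CPM (128 to 173) in neurogenic precursor-like cells. Bipolar-like, amacrine-like, rod-like and cone-like cells held 74.4, 53.0, 29.3 and 14.2 CPM, bipolar-like and amacrine-like not differing beyond counting error. Control microglia-like cells held 0 of 213026 UMIs, with an upper 95% limit of 17.3 CPM, and the level in cone-like cells lay under that limit. Unnamed cluster 17, a mixture led by Ttr, Rgs5 and Pdgfra, held 276 CPM (232 to 325).

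The Lhx2 ratio of Mettl3-CKO to control was 1.03 (0.948 to 1.12) for RPC-like cells, whereas Müller-like cells gave 1.08 (1.01 to 1.16). It was larger in neurogenic precursor-like cells, where the level was 196 CPM (172 to 222) in the Mettl3-CKO library (ratio 1.31, 1.08 to 1.61), and in bipolar-like cells, at 112 CPM (ratio 1.51, 1.17 to 1.93). Each of these was past the fold under 12 of 14 alternatives and above 1 under all 14. In cluster 5 the ratio was 1.39 (1.12 to 1.74).

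**Figure D1:**
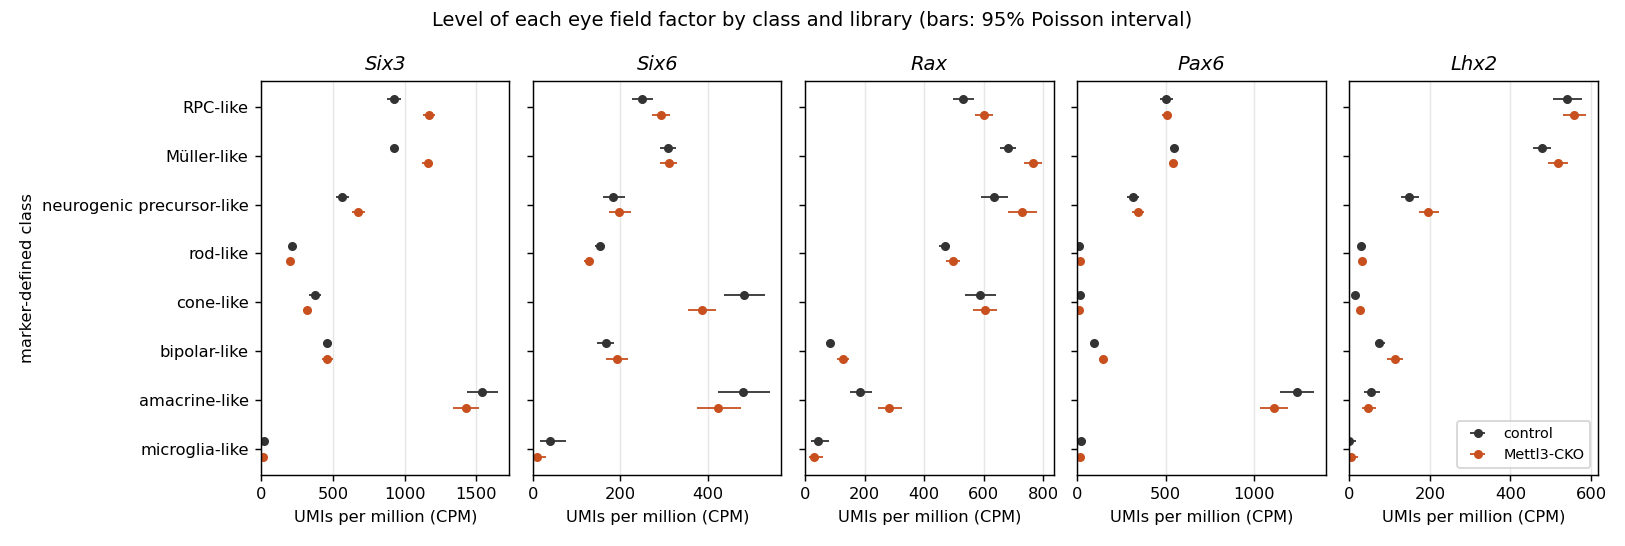
CPM (x axis, linear, a scale of its own in each panel) of the 5 genes in 8 marker-defined classes (y axis) of the control (dark) and the Mettl3-CKO library (orange), with 95% Poisson intervals of 1 library each. Six3 peaks in amacrine-like cells (1540 and 1425 CPM), Pax6 is near 0 in rod-like and cone-like cells, and Lhx2 is highest in RPC-like and Müller-like cells.

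Read against all genes with at least 100 UMIs in a class, a level past the fold was common, and in RPC-like and Müller-like cells the counts of members stood near that background. In RPC-like cells 1 of 5 members (Six3) was higher by the fold, as were 17.1% of 6403 genes, and none was lower, as were 8.20%. In Müller-like cells it was again 1 of 5 (Six3) against 19.6% of 8079 genes, with none lower against 10.1%. The median log2 ratio of the 5 was 0.18 and 0.11, beside 0.04 and 0.05 over all genes.

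In neurogenic precursor-like cells 1 of 5 (Lhx2) was higher, against 12.6% of genes, and none was lower, against 9.72%. Of the 4 members with 100 UMIs over both libraries in rod-like cells, none was past the fold either way, against 9.07% of genes higher and 6.04% lower. In cone-like cells none of the 3 members with 100 UMIs (Six3, Six6 and Rax) was past the fold, against 28.9% of 4413 genes in either direction, and the intervals of Six3 and Six6 lay below 1. In bipolar-like cells 3 of 5 (Rax, Pax6 and Lhx2) were higher against 15.0%, and none lower against 21.1%, and the median log2 ratio of the 5 was 0.59 beside -0.06 over all 5150 genes. In amacrine-like cells 1 of 4 (Rax) was higher against 14.1%, and none lower against 13.1%. With so few members nothing particular to them can be read from these counts.

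**Figure D2:**
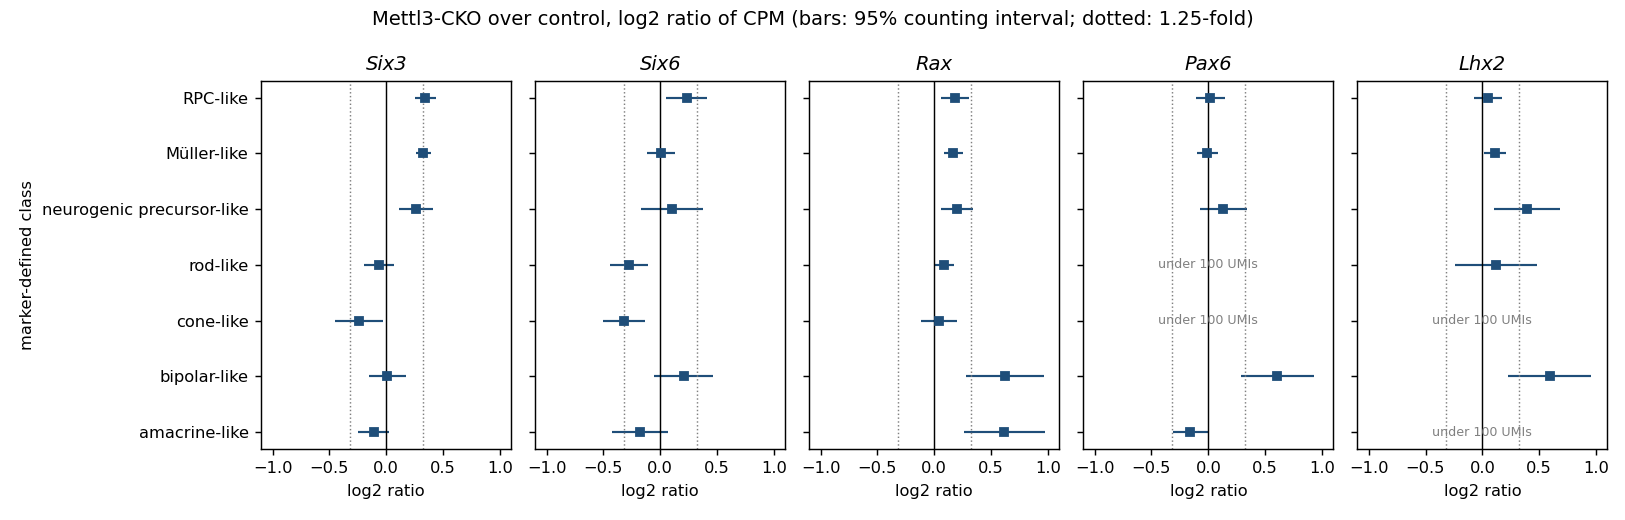
Log2 ratio of CPM, Mettl3-CKO over control (x axis), of each gene in 7 classes (y axis), with 95% intervals for counting error and dotted lines at the fold used for a call (0.32). Six3 and Rax lie above 0 in RPC-like, Müller-like and neurogenic precursor-like cells, Pax6 lies at 0 in the first 2 of these, and Six6 lies below 0 in rod-like and cone-like cells.

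The comparison of progenitors with Müller glia asks which of these genes RPCs keep as they turn into glia. Within the control library, Six3 was level between RPC-like and Müller-like cells, Lhx2 was slightly higher in RPC-like cells (ratio 1.13, 1.04 to 1.23), and Pax6 slightly lower (0.920, 0.847 to 0.9996). Six6 (0.807, 0.718 to 0.905) and Rax (0.780, 0.720 to 0.844) were lower in RPC-like cells. Only Rax was past the fold, but both Six6 and Rax were past it in 9 of 14 alternatives. By the main values 1 of 5 was lower by the fold against 32.3% of genes and none was higher against 22.4%. Every member was thus well represented in both RPC-like and Müller-like cells. The Müller-like class also held cells with precursor and cycling genes (below), so these ratios do not compare progenitors with glia alone.

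In the Mettl3-CKO library the same ratios were 1.01 (0.960 to 1.06) for Six3, 0.942 (0.856 to 1.04) for Six6, 0.787 (0.738 to 0.839) for Rax, 0.937 (0.872 to 1.01) for Pax6 and 1.08 (1.004 to 1.16) for Lhx2. Again 1 of 5 (Rax) was lower by the fold against 28.4% of genes, and none higher against 21.7%. Rax was past the fold in 6 of 14 alternatives, with log2 ratios from -0.54 to -0.18. The log2 ratio changed between libraries beyond counting error for Six6 alone, by a small margin (difference 0.22, 0.01 to 0.44). The share of all genes that did so was not computed. For the other members the difference lay between -0.06 and 0.03, with intervals that included 0. Over the 14 alternatives the Six6 log2 ratio ran from -0.61 to -0.12 in the control and from -0.26 to 0.056 in the Mettl3-CKO library.

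Between RPC-like cells and the precursor and neuronal classes, levels differed in either direction. Most of these differences were larger than those between RPC-like and Müller-like cells. Rax in neurogenic precursor-like, cone-like and rod-like cells was an exception, with smaller ones. In the control, neurogenic precursor-like cells had 0.614 times (0.559 to 0.674) the Six3 level of RPC-like cells, 0.623 times (0.548 to 0.706) the Pax6 level and 0.276 times (0.233 to 0.325) the Lhx2 level, but 1.196 times (1.08 to 1.32) the Rax level. In cone-like cells Six6 was 1.94 times (1.68 to 2.23) its level in RPC-like cells and Rax was 1.11 times (0.988 to 1.24), while Six3 was 0.405 times (0.357 to 0.458). Amacrine-like cells had 1.67 times (1.53 to 1.82) the Six3, 1.93 times (1.64 to 2.26) the Six6 and 2.47 times (2.23 to 2.74) the Pax6 level, but 0.348 times (0.280 to 0.428) the Rax level. Thus amacrine-like cells paired high Six3, Six6 and Pax6 with low Rax and Lhx2. Cone-like cells paired high Six6 with background Pax6, and their Rax did not differ from RPC-like cells beyond counting error.

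Since classes cut a gradient, RPC-like and Müller-like cells were also placed together on a score of glial minus progenitor markers and divided into 5 bins of equal cell number. From bin 1 to bin 5 the proliferation gene Mki67 went from 806 to 4.14 CPM in the control and the glial gene Rlbp1 from 223 to 1926 CPM. In the Mettl3-CKO library Rlbp1 reached 1333 CPM in bin 5, so the same bin held different marker levels in the libraries. Median depth also differed, at 1816 against 3454 UMIs in bin 2 and 2375 against 6334 UMIs in bin 3.

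Six3 was higher in the Mettl3-CKO library in every bin, by 1.17 (1.08 to 1.26), 1.41 (1.26 to 1.57), 1.19 (1.08 to 1.32), 1.47 (1.35 to 1.61) and 1.23 (1.14 to 1.33) from bin 1 to bin 5. In cells of at least 4000 UMIs, binned anew, the 5 ratios ran from 1.11 (1.01 to 1.22) to 1.48 (1.34 to 1.64). Rax was level in the progenitor bin 1 (0.985, 0.894 to 1.09) and higher in bins 2, 3 and 5 (1.30, 1.27 and 1.24). Six6 was higher in bin 3 (1.51, 1.22 to 1.88), with intervals that included 1 in the other bins, and Pax6 had intervals that included 1 in all 5 bins. Lhx2 was higher in bins 2 and 3 (1.18 and 1.16). In the deep cells, Six6 was again higher in bin 3 (1.48, 1.21 to 1.82) but lower in bin 5 (0.801, 0.667 to 0.956), and Pax6 was higher in bin 3 (1.17, 1.01 to 1.35). Lhx2 was level there in bin 2 (1.001, 0.890 to 1.13) and higher in bin 3 (1.254, 1.08 to 1.46), and Rax was also higher in bin 4 (1.12, 1.003 to 1.24).

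**Figure D3:**
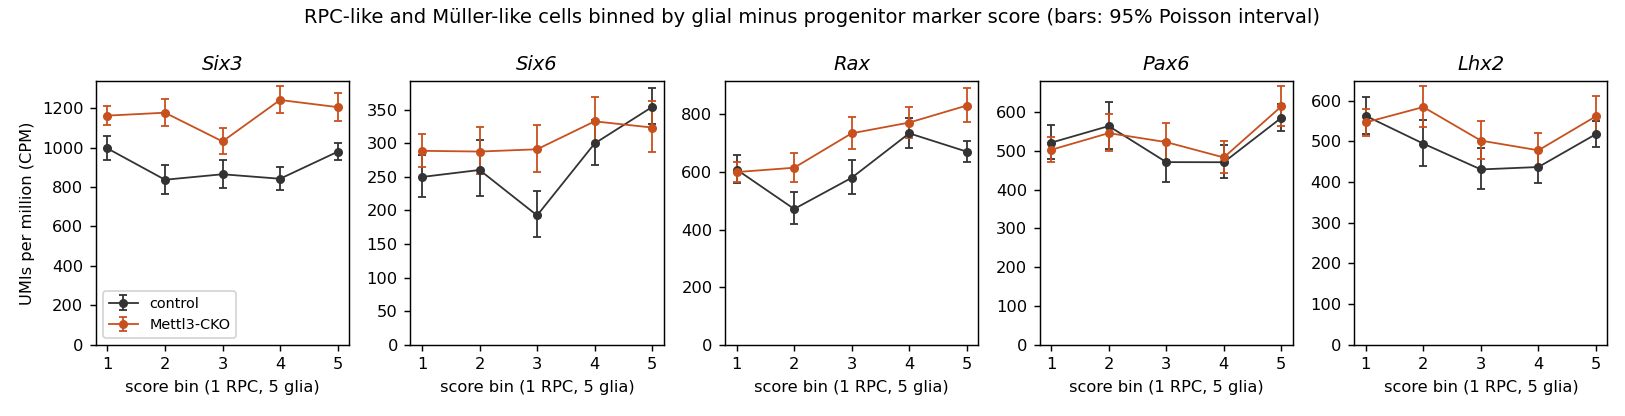
CPM (y axis, from 0) against the bin of the glial minus progenitor score (x axis, 1 for RPC and 5 for glia) in RPC-like and Müller-like cells, control dark and Mettl3-CKO orange, with 95% Poisson intervals. The Six3 lines stay apart in all 5 bins (996 against 1162 CPM in bin 1, 979 against 1205 CPM in bin 5), and the Pax6 lines overlap.

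Within the Müller-like class, 7 subclusters were drawn, of which subcluster 5 held 92 Mettl3-CKO cells and 1 control cell. Its leading genes were Cdkn1a and Phlda3, both known targets of p53. Six3 in this subcluster stood at 1351 CPM (1272 to 1434), against 1097 CPM (1055 to 1140) in Mettl3-CKO cells of the remaining subclusters and 925 CPM (894 to 956) in control cells. Relative to the control cells this was a ratio of 1.46 (1.36 to 1.56) and, for the remaining Mettl3-CKO cells, 1.19 (1.13 to 1.248).

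Rax followed the same order, with 861, 731 and 681 CPM and ratios of 1.27 (1.16 to 1.38) and 1.07 (1.01 to 1.14). Six6 was at 1.17 (1.02 to 1.33) and 0.959 (0.872 to 1.05), and Lhx2 at 1.16 (1.04 to 1.28) and 1.05 (0.979 to 1.13). Pax6 was at 1.09 (0.987 to 1.21) and 0.958 (0.892 to 1.03), both with intervals that included 1. All 5 genes thus had their higher ratio in subcluster 5. The share of all genes with that direction was not computed, so nothing particular to the 5 can be read from it. The subcluster was defined by these cells' own expression, so its values are a description. No subcluster of the RPC-like class was nearly confined to the Mettl3-CKO library.

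**Figure D4:**
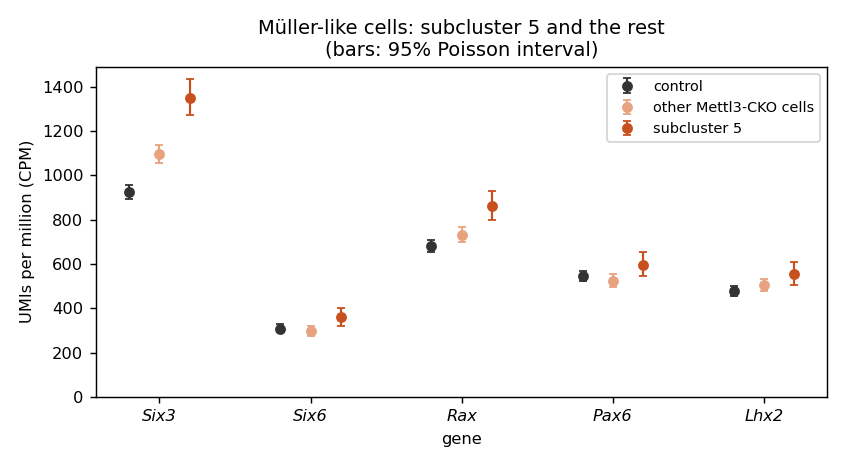
CPM (y axis, from 0) of the 5 genes (x axis) in Müller-like cells of the control library, of the Mettl3-CKO library outside subcluster 5, and of subcluster 5, with 95% Poisson intervals. Six3 steps up from 925 over 1097 to 1351 CPM, Rax from 681 over 731 to 861 CPM.

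Subclusters 3, 6 and 7 of the Müller-like class were led by Neurog2, by the replication genes Ung and Mcm3, and by Neurod1 and Nr2e3, so the class also holds cells with precursor and cycling genes. There Six3 stood at 1083, 1123 and 773 CPM. These 3 subclusters held 84, 28 and 27 of the 582 control cells of the class. Of its 470 Mettl3-CKO cells they held 97, 59 and 29. The makeup of the class thus differed between the libraries, and its part in the Müller-like ratios was not tested. Subclusters of shallow cells showed other proportions. In Müller-like subcluster 2 (median 1536.5 UMIs, led by Gm42418), Six3 was at 415 CPM and Pax6 at 219 CPM, whereas in subcluster 4 (median 829 UMIs, led by Fam19a1) they were at 811 CPM and 1179 CPM. RPC-like subclusters 2 and 6, of median 1258 and 1051.5 UMIs, showed the same contrast, with Pax6 at 199 CPM (144 to 269) and 1364 CPM (1002 to 1814). These subclusters were led by different transcripts, and their part in the ratios above was not tested.

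To compare shares of cells, each cell was thinned to 2000 UMIs. Too shallow for this were 901 control cells, as were 524 Mettl3-CKO cells. Six3 then had a UMI in 76.8% (72.4 to 80.9) of 406 control and 83.9% (79.7 to 87.6) of 361 Mettl3-CKO Müller-like cells, and in 79.7% and 80.5% of RPC-like cells. Before thinning it was 78.2% and 84.7% of Müller-like cells, at median depths of 6857 and 7190 UMIs. None of the 13 control microglia-like cells with enough UMIs had a Six3 UMI, which allows up to 23.1%.

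Six6 had a UMI in 29.0% (21.6 to 37.3) of 138 control and 44.8% (37.9 to 51.8) of 210 Mettl3-CKO RPC-like cells, intervals that did not overlap. In Müller-like cells these shares were 39.7% and 40.7%. Pax6 had a UMI in 55.4% (50.4 to 60.3) and 65.7% (60.5 to 70.5) of Müller-like cells, intervals that also did not overlap. Its CPM there did not differ beyond counting error, so share and level of Pax6 gave different readings.

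Many single cells held several of the factors at once. After thinning, at least 3 of the 5 were seen in 73.2% and 71.9% of control and Mettl3-CKO RPC-like cells, 66.3% and 75.1% of Müller-like cells, 57.4% and 64.3% of amacrine-like cells and 38.2% and 38.4% of neurogenic precursor-like cells. The share was 6.56% and 6.32% in rod-like cells. All 5 together were seen in 7.39% (5.04 to 10.4) of control and 13.02% (9.73 to 16.9) of Mettl3-CKO Müller-like cells, and in 5.80% and 7.62% of RPC-like cells. In the remaining named classes all 5 were seen in 2 control and 4 Mettl3-CKO neurogenic precursor-like cells, in 1 Mettl3-CKO amacrine-like cell and in no rod-like, cone-like, bipolar-like or microglia-like cell.

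**Figure D5:**
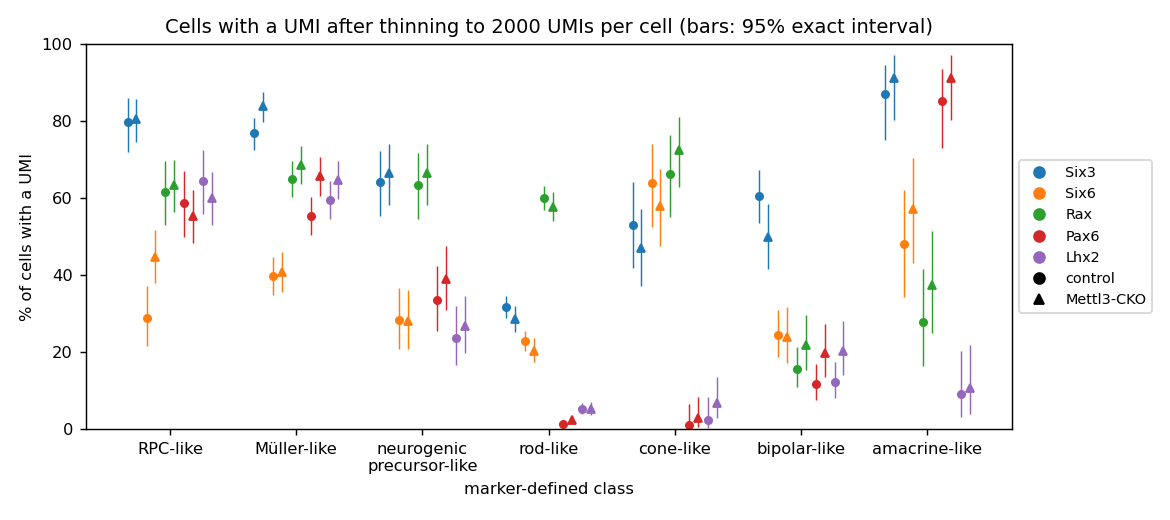
Percentage of cells with a UMI of each gene (y axis, 0 to 100) after thinning to 2000 UMIs per cell, by class (x axis), circles for control and triangles for Mettl3-CKO, with 95% exact binomial intervals. Six3 exceeds 75% of cells in RPC-like, Müller-like and amacrine-like cells, and Pax6 and Lhx2 are rare in rod-like and cone-like cells.

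Over all cells of a library, regardless of class, the ratio of Mettl3-CKO to control was 1.18 (1.15 to 1.21) for Six3, 1.03 (0.994 to 1.07) for Six6, 1.08 (1.05 to 1.11) for Rax, 1.16 (1.11 to 1.21) for Pax6 and 1.198 (1.15 to 1.252) for Lhx2. The libraries differed in their makeup, since RPC-like cells gave 7.52% of control and 12.98% of Mettl3-CKO UMIs. When the Mettl3-CKO levels of the classes and unnamed clusters were weighted by the control's UMI shares, the ratios were 1.11 for Six3, 0.974 for Six6, 1.05 for Rax, 1.04 for Pax6 and 1.13 for Lhx2. Equal makeup thus brought every ratio closer to 1 or below it, and that of Pax6 the furthest. Clustering used genes that differ between the libraries, so these shares are tied to the classes as drawn.

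A list of 42 companion genes, the known partners and neighbours of the factors in the network, was followed in the same cells. In RPC-like cells 25 had 100 UMIs over both libraries, of which 6 were higher and 2 lower by the fold. In Müller-like cells 28 did, with 5 higher and 5 lower. Their median log2 ratios were 0.11 and 0.12, beside the 0.04 and 0.05 of all genes. The shares higher and lower by the fold among all genes were those given above.

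Of the 11 genes of the sine oculis family and its partners, only Dach1 and Gmnn had 100 UMIs over both libraries in these classes. Dach1, a cofactor of the family, was lower in Müller-like cells, at 122 CPM against 164 CPM (ratio 0.743, 0.653 to 0.845). Gmnn, which encodes the replication inhibitor geminin that binds SIX3, was higher there, at 37.0 CPM against 17.4 CPM (ratio 2.13, 1.56 to 2.93), and nearly equal in RPC-like cells, at 239 against 223 CPM. The summed RPC markers in Müller-like cells were at 2914 CPM against 2169 CPM in the control, and their part in the Gmnn ratio was not tested.

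Among 5 corepressors, Tle3 was higher in Müller-like cells (69.0 against 41.2 CPM, ratio 1.68, 1.36 to 2.07) and Tle1 in RPC-like cells (ratio 1.29, 1.07 to 1.55). Aes, a short Groucho-related protein, was lower in RPC-like cells (309 against 393 CPM, ratio 0.785, 0.706 to 0.874). Of the LIM cofactors that LHX2 works with, Lmo4, a LIM-only protein that competes for LDB1, was lower in RPC-like cells (158 against 206 CPM, ratio 0.766, 0.660 to 0.888). Ldb1 itself had a ratio of 1.14 (0.910 to 1.44) among RPC-like cells, and among Müller-like cells of 1.17 (1.001 to 1.37).

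Of the 4 PAX6 partners, Sox2, which acts with PAX6 in progenitors, had ratios of 1.03 (0.937 to 1.12) and 1.005 (0.937 to 1.08). Meis2, a TALE homeodomain protein, was higher in RPC-like cells (85.7 against 64.1 CPM, ratio 1.34, 1.05 to 1.71) and lower in Müller-like cells (64.9 against 84.2 CPM, ratio 0.771, 0.644 to 0.921). Among the progenitor regulators, Fzd5, a Wnt receptor, was higher in RPC-like cells (144 against 100 CPM, ratio 1.43, 1.19 to 1.74). Cdkn1b, the inhibitor p27 that marks cell cycle exit, was lower in Müller-like cells (156 against 231 CPM, ratio 0.677, 0.605 to 0.757). The transcript 4930447C04Rik, which overlaps Six6, was also lower there, at 13.5 against 22.2 CPM (ratio 0.608, 0.410 to 0.888), while Six6 did not differ beyond counting error.

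Across the 16 levels of the 8 classes in both libraries, Six3 and Six6 had the highest correlation of any pair of members (Pearson's r of log2 CPM 0.90), and Rax and Pax6 the lowest (0.28). These levels include the microglia-like background, at 18.8 and 12.1 CPM for Six3 and 37.6 and 8.04 CPM for Six6 in control and Mettl3-CKO. For both genes it lay below every other class, and correlations without it were not computed. Control cone-like cells held the highest Six6 (483 CPM) but only 374 CPM of Six3. Among 8870 genes, the closest to Six3 were Srgap3 (0.97), Bdh1 (0.97) and Uck2 (0.97), and to Six6 were Ndn (0.96), Mxra7 (0.96) and Rabif (0.95). Rax was nearest to Cspg5 (0.99), Spint2 (0.93) and Crb1 (0.93), Pax6 to Nfix (0.98), Mab21l2 (0.98) and Tcf4 (0.97), and Lhx2 to Fgf9 (0.98), Tox3 (0.97) and Nectin3 (0.97). The points share library, depth and classes, so these values are descriptions.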

How the data were processed

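Single-cell 3′ libraries (10x v3.1) of 1 control and 1 Mettl3-CKO pool of 2 retinas each at postnatal day 7 were analysed. Reads were trimmed by the authors (fastp), and UMIs were counted on GRCm38 (mm10) with Cell Ranger 3.1.0. The submitters’ processing notes also name Seurat 3.1. The deposited values are raw UMI counts per gene and cell. The matrices as read here ended early, leaving 3994 of 5995 and 3109 of 6992 barcodes with complete counts, and the other cells were not analysed here. The filter stated by the study (over 200 genes, under 20% mitochondrial UMIs) was not met by 237 and 86 of these cells, which were kept. The 13 mitochondrial genes were left out of totals.

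Counts scaled to 10000 per cell and log-transformed gave 2000 variable genes, 10 principal components, a graph of 20 neighbours and Leiden clusters at resolution 1 (scanpy 1.11.5, leidenalg 0.10.2, scipy 1.17.1). Variable genes excluded the 5 members, the companion genes, Mettl3 and sex-linked genes. Clusters were named from 15 marker lists, needing at least 3 markers raised 1.5-fold and seen in 20% of cells, a mean log2 fold of 0.5 (1 where none was among the 10 leading genes) and no other list with as many markers among those genes. UMIs were summed per class and library and given as CPM with exact Poisson intervals. Ratios carry exact conditional binomial intervals and shares exact Clopper-Pearson intervals, all at 95% and for counting error only. A share of 0 allows up to 3 counts. Subclusters used resolution 0.5, and 1 named as nearly confined to a library held at least 95% Mettl3-CKO cells. Correlations used log2(CPM + 1) of genes with at least 500 UMIs. Ratios and calls were also run on counts simulated with counting error only. That setting cannot show how the intervals fare where cells vary beyond it. No p-value was computed, since cells of 1 library are not replicates.

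Members and lists were chosen with earlier results of these data known. Named companions are those with the 2 highest and 2 lowest ratios in each class, and Dach1, Tle1, Ldb1 and Sox2 were chosen after their values were seen. Scrublet called doublets in 1.50% of cells of the control but 0.257% in the Mettl3-CKO library, where it cannot be taken to have worked, and doublets were kept in the main results.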

Additional observations from a re-analysis of the deposited data

Results flagged for a closer look

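Six3, Six6 and Pax6 each had classes in which the interval of the ratio of Mettl3-CKO to control lay above 1 and others in which it lay below 1. With 1 library per genotype, none of these differences was tested between animals, and the intervals cover counting error only.

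The pairs given here are the classes with the highest and lowest ratios among those above. They were picked by these values, so intervals of the differences that exclude 0 follow from the choice. For Six3, the log2 ratio was 0.34 in RPC-like and -0.24 in cone-like cells, a difference of 0.58 (0.36 to 0.81). For Six6, it was 0.23 in RPC-like and -0.32 in cone-like cells, a difference of 0.55 (0.30 to 0.81), with rod-like cells also below 0 (-0.27). For Pax6, it was 0.61 in bipolar-like and -0.16 in amacrine-like cells, a difference of 0.76 (0.42 to 1.11). The Pax6 difference rests on a bipolar-like value that turned sign in 2 of 14 alternatives and an amacrine-like value that did so in 1 (up to 0.17), while the Six3 and Six6 values kept their signs in all 14.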

How the results depend on the processing

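No paired analysis was possible because each group held 1 library, and leaving out a replicate was not possible either. Over 14 alternatives (13 fixed at the start and 1, without clusters of shallow cells, chosen after seeing the data), 235 of 280 values in RPC-like and Müller-like cells stayed within the interval of the main value. Depth limits the classes of under 100 cells. Some values in the cells listed first or last lay outside the interval of the main value. Intervals of either set alone, which holds fewer UMIs, were not computed. All values here are log2 ratios.

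For Mettl3-CKO over control in RPC-like cells, Six3 (0.34) moved to 0.55 with the mean of per-cell CPM and in the cells listed first, 0.45 with libraries clustered apart, 0.18 in the cells listed last and 0.16 in deep cells without Xist. Rax (0.18) moved to 0.33 with per-cell CPM and 0.039 in deep cells without Xist, and Pax6 (0.016) to -0.15 with per-cell CPM and 0.16 in the cells listed first. In Müller-like cells, median-of-ratios scaling gave 0.23 for Six3, 0.069 for Rax, -0.11 for Pax6 and 0.012 for Lhx2. Six6 went to 0.14 with per-cell CPM, Pax6 to -0.13 and 0.10 in the cells listed first and last, and Lhx2 to 0.21 in those listed first and 0.0025 without doublets.

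For RPC-like over Müller-like cells in the control, Six3 moved to 0.10 with median-of-ratios scaling, -0.19 with per-cell CPM, and -0.13 and 0.090 in the cells listed first and last. Six6 moved to -0.12 with per-cell CPM, -0.61 without doublets and -0.53 at resolution 2, and Pax6 to -0.27 and 0.018 in the cells listed first and last. Without doublets Rax moved to -0.14 and Lhx2 to -0.038. In the Mettl3-CKO library, median-of-ratios scaling gave 0.13 for Six3, -0.23 for Rax, 0.021 for Pax6 and 0.22 for Lhx2. Six3 moved to 0.11 in deep cells with Xist, -0.18 in those without and 0.10 with libraries clustered apart. Six6 moved to 0.056 with per-cell CPM, and to -0.26 both without doublets and at resolution 2. Rax moved to -0.54 in deep cells without Xist and -0.18 at resolution 0.5. Pax6 moved to -0.20 in deep cells without Xist, 0.038 with libraries clustered apart, -0.29 with per-cell CPM and 0.016 in the cells listed first.

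In other classes, 2 values past the fold changed sign, each under 2 alternatives. Pax6 in bipolar-like cells (0.61) went to -0.29 at resolution 2 and -0.053 with cells named by their own markers, and Rax in amacrine-like cells (0.61) to -0.11 in the cells listed last and -1.31 in deep cells without Xist. Some values not past the fold also changed sign. Six3, Six6 and Pax6 in amacrine-like cells (below 0) were above 0 in 1 of 14 alternatives each and Six3 in rod-like cells in 4, and Rax in cone-like and Six6 in neurogenic precursor-like cells (above 0) stayed above in 11 of 14 each. The cause of these moves was not tested. Counts of genes past the fold rose with lower minimums, in RPC-like cells from 1093 higher and 525 lower to 1837 and 826 at 50 UMIs and 2613 and 1263 at 20 UMIs, and in Müller-like cells from 1583 and 814 to 2253 and 1091, and 2942 and 1436.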
